A study of Mus musculus with 18 samples.

Results

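The genes described here make procollagen ready for fibre assembly, and 10 were taken by name from the 55453 gene symbols of a count table. They are the procollagen C-proteinase enhancers Pcolce and Pcolce2, the proteinases Bmp1, Adamts2 and Adamts14, the collagen prolyl hydroxylase subunits P4ha1, P4ha2 and P4ha3, and the chaperones Serpinh1 and Fkbp10. They were named by their place in this pathway, with earlier results of these data known, and all 10 were among the 16170 genes that passed the filter on low counts. The counts came from bulk RNA sequencing of 18 libraries of sorted cardiac fibroblasts in 6 groups of 3. Every pup was a C57BL/6J mouse carrying Tcf21-MerCreMer and Rosa-mTmG, and every pup received tamoxifen on postnatal day 1 (P1). P2 baseline and P10 baseline cells came from hearts without surgery. Hearts of the P2 sham and P2 resected groups were operated on at P2 and collected 3 days later at P5, and those of the P10 sham and P10 resected groups were operated on at P10 and collected at P13. Resection removed the apex of the heart. Tamoxifen lets the Cre made from Tcf21 switch the reporter to GFP, so the sorted GFP+ cells were those that expressed Tcf21 around P1 and their descendants, and cells that began to express Tcf21 later were not marked. The number of hearts behind a library is not given in the sources used here, and p-values measure the spread between these libraries, which may in part be technical.

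Fibrillar collagens are made as procollagen chains with globular ends. In the endoplasmic reticulum, prolyl 4-hydroxylases modify prolines along the chains, a step that the triple helix needs to be stable at body temperature, and chaperones such as the product of Serpinh1 hold the helix until it is exported. Outside the cell, Bmp1 and related proteinases remove the C-terminal propeptide, the enhancers speed that cut, and Adamts2 and Adamts14 remove the N-terminal propeptide, after which the molecules can assemble into fibrils. Cardiac fibroblasts are the main collagen-making cells of the heart, and the matrix around them matures in the days after birth.

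The promoters of the paralogs whose levels are compared most closely are shown first, since these genes encode like proteins and followed different courses with age. RefSeq promoter windows of GRCm38.p6, from 250 bases before to 50 bases after the annotated start, were held for 8 of the 10 genes. They are written 5′ to 3′ along the gene, with capitals marking the GC box GGGCGG and the hypoxia element core ACGTG on either strand.
Pcolce, chr5:137611355-137611654, minus strand: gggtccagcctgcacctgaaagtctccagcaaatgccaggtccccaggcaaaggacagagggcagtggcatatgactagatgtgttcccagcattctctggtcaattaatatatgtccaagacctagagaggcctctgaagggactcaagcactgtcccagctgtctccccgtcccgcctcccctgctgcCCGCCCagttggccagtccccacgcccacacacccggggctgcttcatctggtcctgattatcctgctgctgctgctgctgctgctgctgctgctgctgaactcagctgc
Pcolce2, chr9:95637378-95637677, plus strand: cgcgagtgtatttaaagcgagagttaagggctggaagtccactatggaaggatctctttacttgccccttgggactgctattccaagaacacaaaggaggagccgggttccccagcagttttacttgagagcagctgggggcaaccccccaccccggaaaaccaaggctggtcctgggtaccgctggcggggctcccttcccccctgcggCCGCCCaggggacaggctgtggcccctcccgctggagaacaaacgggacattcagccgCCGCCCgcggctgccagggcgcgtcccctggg
P4ha1, chr10:59323046-59323345, plus strand: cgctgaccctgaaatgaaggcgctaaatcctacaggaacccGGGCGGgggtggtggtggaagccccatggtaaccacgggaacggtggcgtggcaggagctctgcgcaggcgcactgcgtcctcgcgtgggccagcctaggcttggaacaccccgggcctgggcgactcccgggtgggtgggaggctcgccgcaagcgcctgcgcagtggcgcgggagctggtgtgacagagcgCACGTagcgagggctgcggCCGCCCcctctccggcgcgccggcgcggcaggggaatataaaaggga
P4ha2, chr11:54100674-54100973, plus strand: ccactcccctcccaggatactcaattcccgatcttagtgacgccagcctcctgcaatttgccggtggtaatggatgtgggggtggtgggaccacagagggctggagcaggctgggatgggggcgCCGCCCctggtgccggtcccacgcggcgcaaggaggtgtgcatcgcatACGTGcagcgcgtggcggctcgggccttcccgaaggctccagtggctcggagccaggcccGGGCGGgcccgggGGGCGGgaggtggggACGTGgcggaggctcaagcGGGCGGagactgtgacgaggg
P4ha3, chr7:100285270-100285569, plus strand: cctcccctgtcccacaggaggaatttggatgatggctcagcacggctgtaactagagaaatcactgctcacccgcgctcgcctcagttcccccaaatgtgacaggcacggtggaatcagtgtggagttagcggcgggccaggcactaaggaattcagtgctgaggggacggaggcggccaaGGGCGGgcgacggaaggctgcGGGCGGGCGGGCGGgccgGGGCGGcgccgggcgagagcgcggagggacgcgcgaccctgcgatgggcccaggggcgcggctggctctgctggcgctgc

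The enhancer pair differed in CpG dinucleotides, with 5 in the Pcolce window and 17 in that of Pcolce2, beside a median of 7 over 32851 promoters. The prolyl hydroxylase windows held more, with 32 for P4ha1, 26 for P4ha2 and 30 for P4ha3. GGGCGG was found once in the Pcolce window, in 2 places in that of Pcolce2, in 2 in that of P4ha1, in 4 in that of P4ha2 and in 5 in that of P4ha3, where 3 copies overlap, and 35.7% of all promoters hold it. ACGTG was found once in the P4ha1 window and in 2 places in that of P4ha2, and 19.6% of all promoters hold it. The P4ha3 window held none. TATAAA was present only in the P4ha1 window among the 8, against 13.6% of all promoters, and CCAAT was in none of the 8, against 37.4%. These matches describe letters in the windows and were not tested against the expression values.

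Between 10462737 and 22980554 reads were counted on genes per library. Each level below is a gene's count relative to the total of its library, in counts per 1000000 (CPM), with totals rescaled by the trimmed-mean (TMM) method. The fibroblast label held in every library, with Tcf21 between 203 and 447 CPM and Pdgfra between 256 and 878 CPM. Of the markers of other cells, the summed level of 10 macrophage genes lay between 5.3 and 1045 CPM and that of 9 endothelial genes between 169 and 480 CPM. Some libraries stood apart in the genes described here. The libraries numbered 1 were the lowest of their group for Pcolce in 6 of 6 groups and for Serpinh1 and Fkbp10 in 5 of 6, and P2 sham replicate 1 lay apart from its group in Bmp1, P4ha2, P4ha3 and Adamts14. Results without these libraries are given where a call changed.

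**Figure D1:**
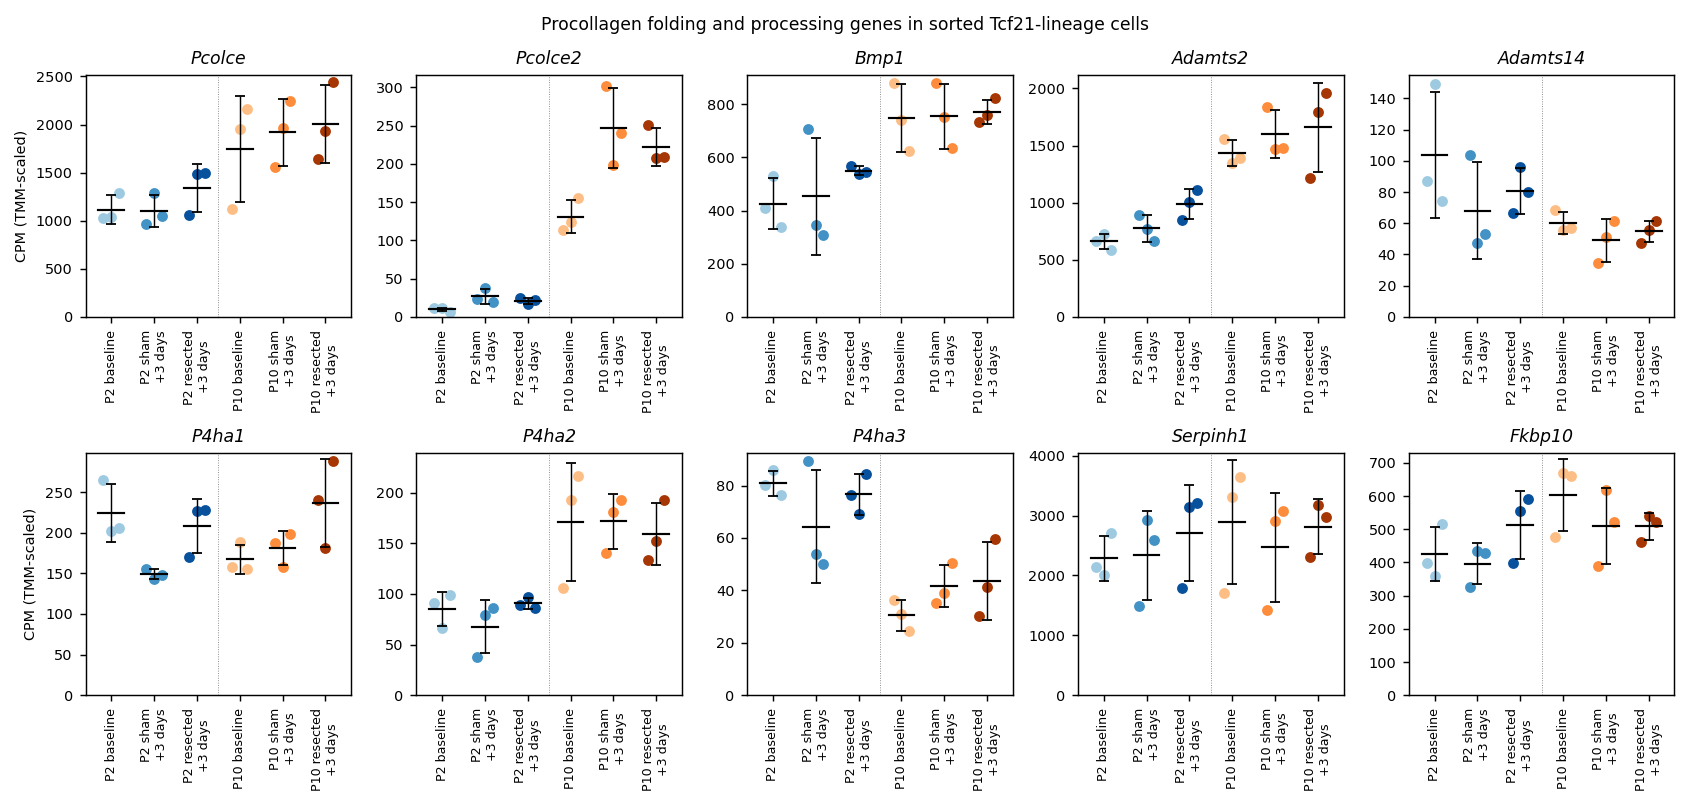
Levels of the 10 genes in CPM (linear axes from 0) by group, with 1 point per library, the mean as a bar and the SD (n = 3) as whiskers. Pcolce2, Adamts2 and P4ha2 lie higher in all 9 P10 libraries than in any P2 library, while Serpinh1 and P4ha1 overlap between the ages.

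Per kilobase of merged exon, the genes spanned a wide range, and their order changed with age below the first 6. In the P2 window Serpinh1 was highest at 1001 ± 251 CPM per kilobase (SD, n = 9), followed by Pcolce at 311 ± 53.7, Fkbp10 at 152 ± 30.6, Adamts2 at 86.5 ± 18.5, Bmp1 at 53.7 ± 15 and P4ha1 at 47.1 ± 10.2. P4ha3 at 23.6 ± 4.44, Adamts14 at 16.2 ± 5.92, P4ha2 at 13 ± 3.03 and Pcolce2 at 4.18 ± 2.03 CPM per kilobase were the lowest. In this window Adamts2 and Bmp1, Bmp1 and P4ha1, P4ha3 and Adamts14, and Adamts14 and P4ha2 were neighbours that differed by less than the sum of their SDs. In the P10 window the same 6 genes led in the same order, at 1115 ± 308, 495 ± 105, 184 ± 32.0, 167 ± 26.8, 85.5 ± 10.4 and 47.4 ± 10.7 CPM per kilobase (SD, n = 9). Pcolce2 then came next at 43.3 ± 13.2, before P4ha2 at 26.8 ± 5.80, P4ha3 at 12.3 ± 3.46 and Adamts14 at 10.5 ± 1.89 CPM per kilobase. Here Fkbp10 and Adamts2, P4ha1 and Pcolce2, Pcolce2 and P4ha2, and P4ha3 and Adamts14 differed by less than the sum of their SDs.

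The broadest comparison set the 9 libraries of the P10 window, in which the heart no longer regenerates, against the 9 of the P2 window, in which it does. In the P10 window Pcolce2, P4ha2, Adamts2, Pcolce and Bmp1 rose and P4ha3 and Adamts14 fell, so 7 of the 10 genes were called at an adjusted p under 0.05. Over all 16170 genes the called share was 13.5% (7.11% higher and 6.39% lower). Serpinh1, Fkbp10 and P4ha1 did not pass the test. The median log2 fold change of the 10 genes was 0.48, against -0.06 over all genes tested. In 3 of the 10 genes, Pcolce2, Adamts2 and P4ha2, every P10 library was above every P2 library, which held for 1.15% of all genes in that direction. In bulk RNA, fewer cells of a kind and less RNA per cell cannot be told apart. DESeq2 called the same 7 genes, against 11.1% of the 28759 genes it tested.

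Other measures moved with the age windows as well. Among marker genes, 4 of 10 fibroblast genes were called higher and 1 lower in the P10 window, and the summed fibroblast level ran from 58681 to 111286 CPM in P2 libraries and from 82987 to 122889 CPM in P10 libraries. The fibroblast list held Col1a1, Col1a2 and Col3a1, fibrillar chains described below, so its sum follows collagen levels in part. Medians in P2 and P10 libraries were 285 and 284 CPM for Tcf21, 353 and 484 CPM for Pdgfra, and 7007 and 14023 CPM for Dcn. Of 10 cardiomyocyte genes, 5 were called lower, with summed levels of 315 to 1477 CPM in the P2 window and 163 to 815 CPM in the P10 window. Of 9 mural genes, 4 were called higher and 1 lower, with sums of 512 to 1388 CPM and 977 to 2069 CPM. Of 8 epicardial genes tested 1 was called higher, with list sums of 56.4 to 151 CPM and 103 to 315 CPM, and no macrophage or endothelial gene was called. No marker was at 0 in all libraries of a window. Within the matched pairs, fibroblast and cardiomyocyte sums did not overlap between the ages at baseline (58681 to 71607 against 82987 to 122889 CPM, and 1092 to 1477 against 525 to 702 CPM) or after sham surgery (59626 to 81403 against 83270 to 115266 CPM, and 908 to 1263 against 163 to 815 CPM). Mural sums did not overlap at baseline (512 to 843 against 1171 to 2069 CPM), and epicardial sums were higher at P10 without overlap in all 3 pairs. The part of these cells in the age differences below was not tested.

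Pcolce2, which encodes the less abundant of the enhancers of C-propeptide removal, spans 95637601 to 95698096 of chromosome 9 in GRCm38 and had the largest age difference of the 10 genes. Its levels in replicates 1, 2 and 3 were 11, 11.3 and 6.76 CPM at P2 baseline, 23.8, 38.1 and 19.6 CPM in P2 sham, and 24.2, 16.7 and 22.5 CPM in P2 resected. At P10 they were 114, 124 and 156 CPM at baseline, 302, 199 and 240 CPM in sham, and 251, 207 and 209 CPM in resected. The lowest P10 library was thus above the highest P2 library, and the P10 baseline libraries were the lowest of the P10 window. The lowest value rested on 111 counts. Over the windows Pcolce2 was 10.9-fold higher at P10 (log2 fold change 3.44 ± 0.17 SE, adjusted p = 3.2e-09), and it remained called in all 24 alternative fits, with log2 fold changes of 3.38 to 3.57.

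Pcolce2 was also called in each pair of matched groups. The log2 fold change of P10 over P2 was 3.75 ± 0.30 (SE) at baseline (adjusted p = 3.5e-06), 3.18 ± 0.30 after sham surgery (adjusted p = 2.55e-05) and 3.39 ± 0.30 after resection (adjusted p = 3.1e-05). All 3 P10 libraries were above all 3 P2 libraries in each pair. No other of the 10 genes was called in all 3 matched pairs by edgeR with all 18 libraries. DESeq2 called Adamts2 in all 3 as well, as did edgeR with all libraries numbered 1 left out. Under limma's voom with sample quality weights, both Adamts2 and P4ha2 were called in all 3.

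Pcolce, the abundant enhancer on chromosome 5 from 137605103 to 137613784, ran from 970 to 1495 CPM (median 1055) in the P2 window and from 1124 to 2445 CPM (median 1949) in the P10 window. The windows overlapped through 1 library, P10 baseline replicate 1 at 1124 CPM, and every other P10 library was above every P2 library. Over the windows Pcolce was 1.6-fold higher at P10 (log2 fold change 0.68 ± 0.14 SE, adjusted p = 0.0038). In the matched pairs it was not called by edgeR, with log2 fold changes of 0.64 ± 0.25 at baseline (adjusted p = 0.163), 0.80 ± 0.25 after sham surgery (adjusted p = 0.0960) and 0.58 ± 0.25 after resection (adjusted p = 0.482). Without P10 baseline replicate 1, the lowest P10 library, the baseline difference was 0.88 and was called (adjusted p = 0.0298), as it was with all libraries numbered 1 left out (0.82, adjusted p = 0.0257) and under limma's voom with sample quality weights (0.85, adjusted p = 0.0039). After sham surgery DESeq2 (0.80, adjusted p = 0.0291) and voom (0.90, adjusted p = 0.0212) called it. Of the merged exon bases of Pcolce, 2.93% overlap Fbxo24 or Gm36266, and counting disregarded strand, so a small share of reads there cannot be assigned with certainty.

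Of the summed enhancer level per kilobase, Pcolce2 made up 1.35 ± 0.635% (SD, n = 9) in the P2 window, with libraries between 0.433% and 2.38%. In the P10 window its share was 8.21 ± 2.75%, with libraries between 4.99% and 13.8%. The shares did not overlap, and Pcolce remained the major enhancer transcript in every library. These shares are a description without a test.

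**Figure D2:**
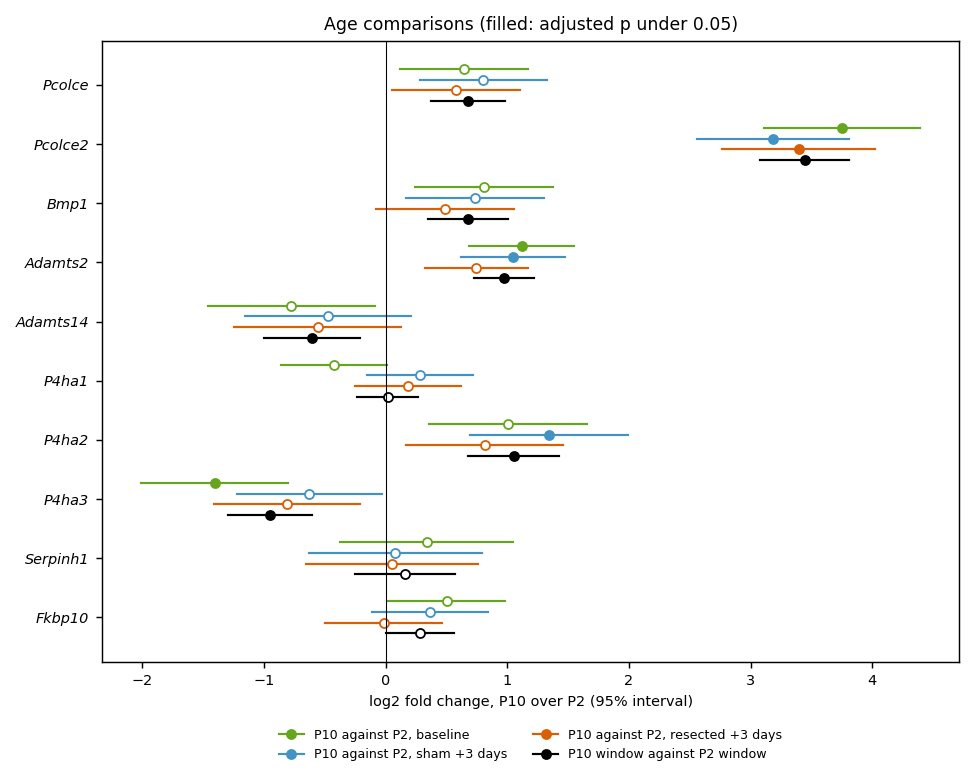
Log2 fold changes of P10 over P2 (x axis) for the 10 genes (y axis) for the baseline, sham and resected pairs and over the windows, with 95% intervals and filled points where the adjusted p was under 0.05. Pcolce2 stands at 3.18 to 3.75 in all 4 comparisons, and P4ha3 and Adamts14 lie on the other side of 0 from the genes called higher.

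Among the proteinases, Adamts2, which encodes the main remover of N-propeptides and lies on chromosome 11 from 50602084 to 50807573, showed the clearest rise. At P2 its levels in replicates 1, 2 and 3 were 668, 725 and 587 CPM at baseline, 893, 769 and 660 CPM in sham, and 851, 1004 and 1111 CPM in resected. At P10 they were 1561, 1346 and 1388 CPM, then 1840, 1473 and 1482 CPM, then 1218, 1796 and 1960 CPM in the same order of groups. The windows did not overlap, although P10 resected replicate 1 at 1218 CPM came near the highest P2 library. Adamts2 was 1.96-fold higher in the P10 window (log2 fold change 0.97 ± 0.12 SE, adjusted p = 2.4e-05).

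Adamts2 was called at baseline (log2 fold change 1.12 ± 0.20 SE, adjusted p = 0.0046) and after sham surgery (1.05 ± 0.20, adjusted p = 0.0071). After resection the log2 fold change was 0.75 ± 0.20 and missed the threshold (adjusted p = 0.105). Without P10 resected replicate 1, its value there was 0.92 and was called (adjusted p = 0.0469). DESeq2 (0.77, adjusted p = 0.0128) and voom (0.62, adjusted p = 0.0207) also called it after resection, as did edgeR with all libraries numbered 1 left out (0.83, adjusted p = 0.0498). After sham surgery the call was lost when only the compared groups were fitted (1.04, adjusted p = 0.120). Whether the age difference itself varied between sham and resected cells is the interaction reported with the resection comparisons, and it was not called.

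Bmp1 encodes the C-proteinase and lies on chromosome 14 (70474558 to 70520234). It ran from 307 to 706 CPM (median 530) in the P2 window and from 623 to 880 CPM (median 752) in the P10 window. The overlap came from P2 sham replicate 1 at 706 CPM, since the other P2 libraries lay at or under 569 CPM and its own group otherwise held 347 and 307 CPM. Bmp1 was 1.6-fold higher in the P10 window (log2 fold change 0.68 ± 0.16 SE, adjusted p = 0.0065). It was not called by edgeR at baseline (0.81 ± 0.27, adjusted p = 0.101), after sham surgery (0.74 ± 0.27, adjusted p = 0.171) or after resection (0.49 ± 0.27, adjusted p = 0.679). Without P2 sham replicate 1 the difference after sham surgery was 1.21 and was called (adjusted p = 0.0073), as it was with all libraries numbered 1 left out (1.09, adjusted p = 0.0297) and under voom (1.04, adjusted p = 0.0053). Voom also called the baseline difference (0.75, adjusted p = 0.0054).

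Adamts14, another N-proteinase, on chromosome 10 from 61197112 to 61273438, was the only proteinase of the 10 genes called lower at P10. It ran from 47.2 to 150 CPM (median 79.8) in the P2 window and from 34.3 to 68.6 CPM (median 55.6) in the P10 window. The windows overlapped, and the highest values were P2 baseline replicate 2 at 150 CPM and P2 sham replicate 1 at 104 CPM. It was 1.52-fold lower in the P10 window (log2 fold change -0.60 ± 0.19 SE, adjusted p = 0.0408). That call was lost in 11 of the 18 fits that each left out 1 library, where the adjusted p was 0.0621 to 0.102. Those libraries were P2 baseline replicate 2, P2 sham replicate 1, P2 resected replicates 2 and 3, P10 baseline replicates 2 and 3, P10 sham replicates 1 and 2 and P10 resected replicates 1, 2 and 3. It was also lost with all libraries numbered 1 left out (-0.47, adjusted p = 0.0873). In the matched pairs edgeR did not call it, at -0.78 ± 0.33 at baseline (adjusted p = 0.206), -0.47 ± 0.32 after sham surgery (adjusted p = 0.515) and -0.56 ± 0.33 after resection (adjusted p = 0.722). Voom called the baseline difference (-0.79, adjusted p = 0.0267).

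Of the summed N-proteinase level per kilobase of Adamts2 and Adamts14, Adamts14 made up 15.9 ± 5.28% (SD, n = 9) in the P2 window and 6.04 ± 1.29% in the P10 window. Its share was between 9.93% and 27.0% in P2 libraries and between 3.24% and 7.31% in P10 libraries, without overlap. The highest shares were at P2 baseline, where the mean was 21.5 ± 4.80% (SD, n = 3). Adamts2 therefore held the larger share in all 18 libraries.

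The prolyl 4-hydroxylase subunits, of which each can form the catalytic part of the enzyme together with the product of P4hb, followed 3 different courses. P4ha2, on chromosome 11 from 54100095 to 54131665, measured 91.1, 66.3 and 98.6 CPM at P2 baseline, 37.8, 78.8 and 86.4 CPM in P2 sham and 88.8, 96.7 and 86.3 CPM in P2 resected. At P10 its levels were 105, 192 and 216 CPM at baseline, 140, 181 and 193 CPM in sham and 133, 152 and 193 CPM in resected. No P10 library was as low as a P2 library, and the nearest were P10 baseline replicate 1 and P2 baseline replicate 3. P4ha2 was 2.08-fold higher in the P10 window (log2 fold change 1.05 ± 0.18 SE, adjusted p = 5.7e-04).

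In the matched pairs P4ha2 was called after sham surgery (log2 fold change 1.34 ± 0.31 SE, adjusted p = 0.0219). That call was lost without P2 sham replicate 1 (1.06, adjusted p = 0.0652), without P10 sham replicate 2 (1.30, adjusted p = 0.0644), without P10 sham replicate 3 (1.25, adjusted p = 0.0798) and when only the compared groups were fitted (1.34, adjusted p = 0.164). At baseline the log2 fold change was 1.01 ± 0.31 and was not called (adjusted p = 0.0727), while without P10 baseline replicate 1 it was 1.26 and was called (adjusted p = 0.0169). The baseline difference was also called by DESeq2 (1.03, adjusted p = 0.0156), by voom (1.16, adjusted p = 0.0011), with no filter on low counts (1.07, adjusted p = 0.0194) and with all libraries numbered 1 left out (1.31, adjusted p = 0.0069). After resection it was 0.81 ± 0.31 (adjusted p = 0.358), and voom called it (0.74, adjusted p = 0.0273).

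P4ha3 (chromosome 7, 100285520 to 100319699) moved opposite to P4ha2. Its levels were 80.4, 86.0 and 76.4 CPM at P2 baseline, 89.3, 53.9 and 49.9 CPM in P2 sham and 76.5, 69.0 and 84.4 CPM in P2 resected. At P10 they were 36.2, 31.0 and 24.4 CPM at baseline, 35.3, 39.1 and 50.5 CPM in sham and 30.1, 41.4 and 59.6 CPM in resected. The baseline groups were separate, and the windows overlapped through P2 sham replicates 2 and 3 and the highest operated P10 libraries. P4ha3 was 1.93-fold lower in the P10 window (log2 fold change -0.95 ± 0.16 SE, adjusted p = 7.3e-04).

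At baseline P4ha3 was 2.65-fold lower at P10 (log2 fold change -1.41 ± 0.29 SE, adjusted p = 0.0100), a call that was lost without P10 baseline replicate 3, the lowest library (-1.27, adjusted p = 0.0556). After surgery the differences were not called by edgeR, at -0.63 ± 0.28 after sham (adjusted p = 0.279) and -0.81 ± 0.28 after resection (adjusted p = 0.286), where voom called it (-0.98, adjusted p = 0.0066). In baseline cells P4ha3 was the only one of the 10 genes called lower, against 1.68% of all genes in that direction. Together with Pcolce2 and Adamts2 it made 3 of 10 called at baseline, where 4.38% of all genes were called and 2.71% called higher.

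P4ha1, the subunit with the highest level per kilobase of merged exon, lies on chromosome 10 from 59323296 to 59373304. It ran from 143 to 265 CPM (median 202) in the P2 window and from 156 to 289 CPM (median 187) in the P10 window, so the ranges nearly coincided. The log2 fold change over the windows was 0.02 ± 0.12 SE, with a 95% interval of -0.23 to 0.27 (adjusted p = 0.968), and its sign turned in some of the alternative fits. In the matched pairs edgeR did not call P4ha1, and the signs differed. The values were -0.42 ± 0.21 at baseline (adjusted p = 0.286), 0.29 ± 0.21 after sham surgery (adjusted p = 0.545) and 0.19 ± 0.21 after resection (adjusted p = 0.955). The window value averages these opposite signs. Within the P2 window its group means were 224 ± 35.5 CPM at baseline, 149 ± 6.42 CPM in sham and 208 ± 33.0 CPM in resected (SD, n = 3 each). The spread of P4ha1 among groups of one window was thus larger than its difference between the windows.

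**Figure D3:**
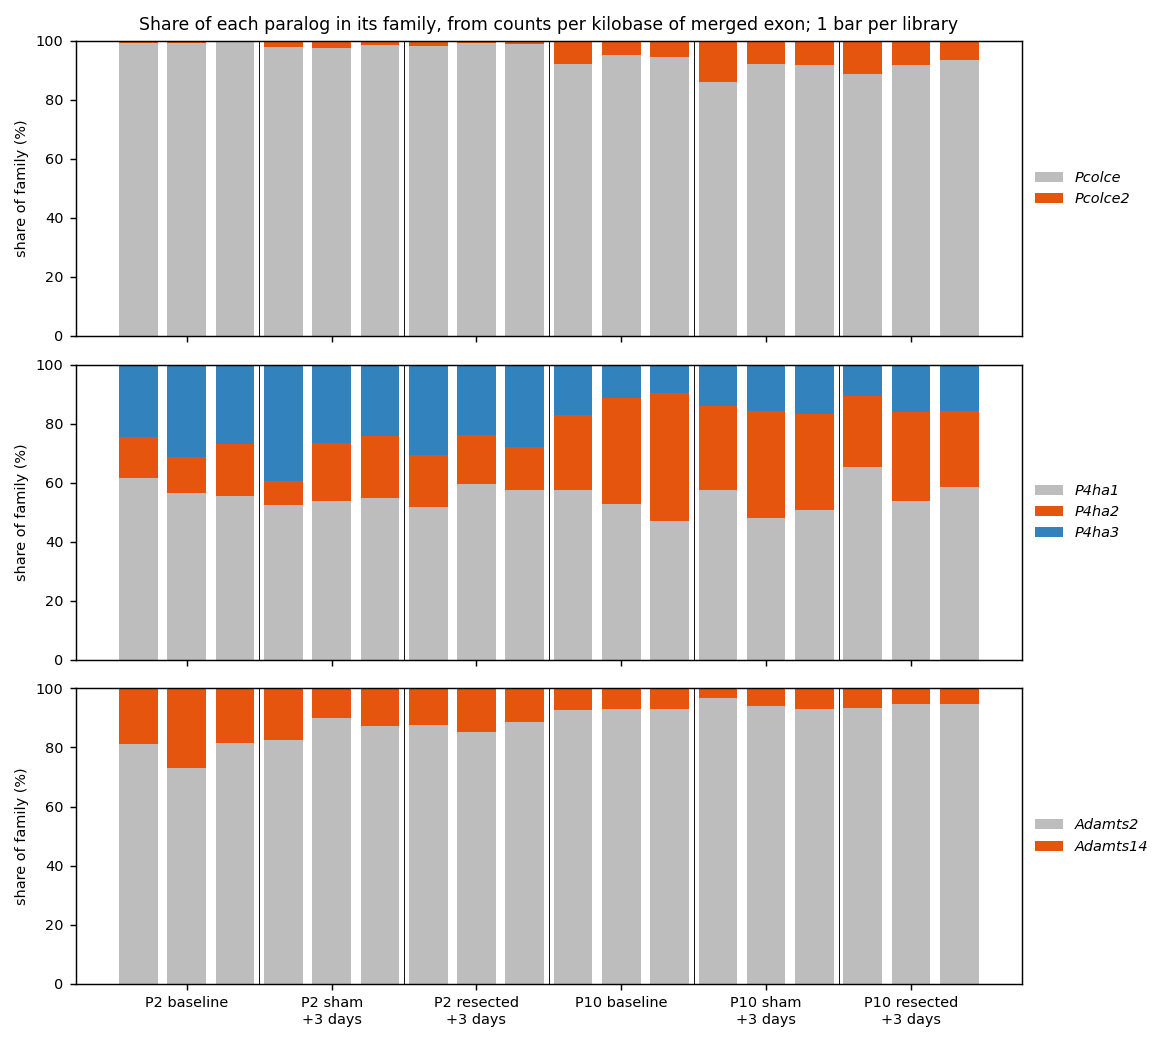
Share of each paralog (y axis, percent) in the summed level per kilobase of its family, with 1 stacked bar per library and the 6 groups along the x axis. P4ha2 takes a mean of 15.7% in the P2 window and 31.2% in the P10 window, P4ha3 28.4% and 14.2%, and Pcolce2 1.35% and 8.21%.

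Within the summed level of the 3 subunits per kilobase, P4ha2 made up 15.7 ± 3.93% (SD, n = 9) in the P2 window and 31.2 ± 6.32% in the P10 window, and P4ha3 28.4 ± 4.90% and 14.2 ± 2.85%. Neither share overlapped between the windows, with P4ha2 at 8.36% to 21.1% and then 23.9% to 43.2%, and P4ha3 at 23.8% to 39.3% and then 9.69% to 17.2%. P4ha2 held more than P4ha3 in all 9 P10 libraries, also from plain counts and by the longest transcript of each gene. The order at P2 turned with the length used, and P4ha3 held more than P4ha2 in 9 of 9 P2 libraries per kilobase of merged exon, in 5 by longest transcript and in 2 from plain counts. The share of P4ha1 was 55.9 ± 3.25% in the P2 window and 54.6 ± 5.75% in the P10 window. The plot of shares by library shows the exchange of the minor subunits beside the P4ha1 share. Its rank depends on the length as well, since P4ha1 was above P4ha2 in all 9 P10 libraries per kilobase of merged exon, in 6 from plain counts and in 4 by longest transcript. From plain counts the share of P4ha1 was 55.2% in the P2 window and 48.6% in the P10 window.

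The chaperones showed no age difference that edgeR called. Serpinh1, which encodes the collagen-specific chaperone of the endoplasmic reticulum and lies on chromosome 7 from 99345376 to 99353239, ran from 1496 to 3211 CPM (median 2588) in the P2 window and from 1419 to 3643 CPM (median 2971) in the P10 window. The low values were mostly the libraries numbered 1, with 1496 CPM in P2 sham, 1789 CPM in P2 resected, 1713 CPM in P10 baseline and 1419 CPM in P10 sham. The log2 fold change over the windows was 0.16 ± 0.19 SE, with a 95% interval of -0.25 to 0.57 (adjusted p = 0.658). With all libraries numbered 1 left out it was 0.21 (adjusted p = 0.20).

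Fkbp10, which encodes a prolyl isomerase that assists procollagen folding and lies on chromosome 11 from 100415697 to 100424824, ran from 326 to 590 CPM (median 428) in the P2 window and from 390 to 670 CPM (median 523) at P10. The log2 fold change was 0.28 ± 0.13 SE, with a 95% interval of 0.01 to 0.56 and an adjusted p of 0.167. Under limma's voom with sample quality weights it was 0.33 and was called (adjusted p = 0.0240), where 28.3% of all genes were called. EdgeR called none of the matched pairs of Fkbp10. They were at 0.50 ± 0.23 at baseline (adjusted p = 0.246), 0.36 ± 0.23 after sham surgery (adjusted p = 0.461) and -0.02 ± 0.23 after resection. From P2 sham to P10 baseline the value was 0.60 ± 0.23 (adjusted p = 0.2275). Of the merged exon bases of Fkbp10, 6.58% overlap Nt5c3b on the other strand, so reads there cannot be told apart.

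After sham surgery 3 of the 10 genes were called with age, Pcolce2, P4ha2 and Adamts2, all higher at P10, where 3.18% of all genes were called and 1.54% called higher. After resection 1 was called, Pcolce2, where 0.86% of all genes were called and 0.625% called higher. The median log2 fold changes of the 10 genes were 0.57 for the baseline pair, 0.55 for the sham pair and 0.34 for the resected pair, against -0.03, -0.07 and -0.04 over all genes. The matched pairs use separate libraries, and the window comparison is built from the same 18 libraries as the pairs.

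Resection was compared with sham at each age, to ask whether injury changed these genes 3 days later. At P2 none of the 10 genes was called by edgeR, where 0.0% of all genes were called, and none by DESeq2 (0.118% of all genes) or voom. At an unadjusted p under 0.05 there was 1 gene, P4ha1, against 4.51% of all genes. P4ha1 measured 156, 143 and 148 CPM in P2 sham and 170, 227 and 227 CPM in P2 resected, without overlap, with a log2 fold change of 0.48 ± 0.21 SE (95% interval 0.05 to 0.92, adjusted p = 1.0). Groups that did not overlap and were higher after resection made up 5.62% of all genes.

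The other genes overlapped between sham and resected cells at P2. Log2 fold changes of the 10 genes ran from -0.36 for Pcolce2 to 0.48 for P4ha1, with 9 of 10 above 0 and a median of 0.28, against 0.00 over all genes. Their 95% intervals reached from -0.94 to 1.06, so changes within each gene's interval are not excluded. Summed fibroblast markers were 59626 to 81403 CPM in P2 sham and 72986 to 111286 CPM in P2 resected cells, and cardiomyocyte markers 908 to 1263 CPM and 315 to 922 CPM. Macrophage marker sums were 5.3 to 189 CPM in P2 sham and 64.2 to 436 CPM in P2 resected cells, and mural sums 555 to 1373 CPM and 775 to 1388 CPM, and their part in these values was not tested. The libraries also differed in how many genes had a count, at 16384 to 17213 in P2 sham and 19707 to 20163 in P2 resected. Their total counts were 14297349 to 21089775 and 15269480 to 22980554. The part of this difference in the values was not tested either.

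At P10 none of the 10 genes was called after resection by edgeR, where again 0.0% of all genes were called, by DESeq2 (0.15% of all genes) or by voom, and none had an unadjusted p under 0.05, against 4.08% of all genes. Log2 fold changes ran from -0.15 for Pcolce2 to 0.38 for P4ha1, with 7 of 10 above 0, a median of 0.06 against 0.02 over all genes, and 95% intervals from -0.75 to 0.90. All 10 genes overlapped between the groups. P4ha1 measured 187, 158 and 199 CPM in P10 sham and 241, 181 and 289 CPM in P10 resected.

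The difference between the resection effects at P10 and P2 was called for none of the 10 genes by edgeR (0.0% of all genes), DESeq2 (0.0904%) or voom, and none had an unadjusted p under 0.05, against 2.88% of all genes. These differences ran from -0.53 for P4ha2 to 0.21 for Pcolce2 on the log2 scale, with a median of -0.20 against 0.03 over all genes. Their 95% intervals reached from -1.43 to 1.02, and the P4ha2 interval was -1.43 to 0.38.

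**Figure D4:**
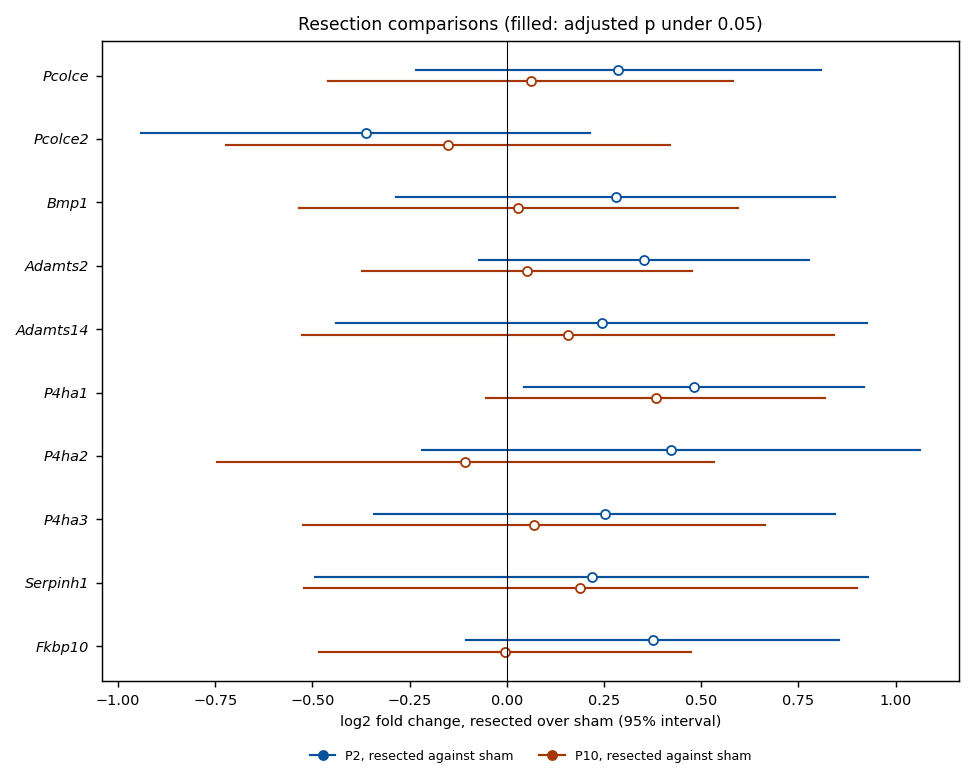
Log2 fold changes of resected over sham cells (x axis) for the 10 genes (y axis) at P2 and P10, with 95% intervals and open points where the adjusted p was not under 0.05. All 20 points are open, and the 2 estimates of P4ha1, 0.48 and 0.38, are the highest at their age.

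Sham and baseline groups place the genes along collection days 2, 5, 10 and 13, though each step also changes surgery. From P2 baseline to P2 sham none of the 10 genes was called by edgeR, where 0.0% of all genes were called. At an unadjusted p under 0.05 there were 2, Pcolce2 and P4ha1, against 7.6% of all genes. Pcolce2 went from 6.76 to 11.3 CPM up to 19.6 to 38.1 CPM, without overlap, with a log2 fold change of 1.48 ± 0.28 SE (adjusted p = 0.142). DESeq2 called Pcolce2 there (1.5, adjusted p = 1.9e-04), as 1 of 10 genes against 0.626% of all genes, and so did edgeR with no filter on low counts (1.5, adjusted p = 0.0022), while voom called none. P4ha1 went from 202 to 265 CPM down to 143 to 156 CPM, without overlap, with a log2 fold change of -0.59 ± 0.21 (adjusted p = 0.558).

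From P2 sham at P5 to P10 baseline, 3 of the 10 genes were called, all higher, where 1.32% of all genes were called and 0.693% called higher. Marker sums that did not overlap in this step were those of fibroblast genes, at 59626 to 81403 CPM in P2 sham and 82987 to 122889 CPM at P10 baseline, and of cardiomyocyte genes, at 908 to 1263 CPM and 525 to 702 CPM, and their part in the values was not tested. Pcolce2 rose 4.82-fold (log2 fold change 2.27 ± 0.29 SE, adjusted p = 0.0014), P4ha2 2.53-fold (1.34 ± 0.31, adjusted p = 0.0388) and Adamts2 1.85-fold (0.89 ± 0.20, adjusted p = 0.0377). All 3 calls were lost when only these 2 groups were fitted (adjusted p = 0.134 for Pcolce2, 0.447 for P4ha2 and 0.383 for Adamts2), where 0.00736% of all genes were called. The lowest log2 fold changes over the alternative fits were 2.08 for Pcolce2, 1.05 for P4ha2 and 0.78 for Adamts2. Leaving out 1 library ended the call of P4ha2 for each of the 3 P2 sham libraries and for P10 baseline replicates 2 and 3 (adjusted p = 0.0577 to 0.164). It ended that of Adamts2 for P2 sham replicates 2 and 3 and for each P10 baseline library (adjusted p = 0.0610 to 0.158). P4ha3 was at -1.08 ± 0.29 (adjusted p = 0.0713), with all P10 baseline libraries under all P2 sham libraries, and DESeq2 called it (-1.08, adjusted p = 0.0092).

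From P10 baseline to P10 sham at P13 none of the 10 genes was called by edgeR, where 0.00618% of all genes were called, by DESeq2 (0.57% of all genes) or by voom. Pcolce2 was the 1 gene with an unadjusted p under 0.05, against 7.4% of all genes. It went from 114 to 156 CPM to 199 to 302 CPM, without overlap, with a log2 fold change of 0.91 ± 0.27 SE (95% interval 0.34 to 1.49, adjusted p = 0.458). The summed epicardial markers did not overlap in this step either, at 103 to 138 CPM at P10 baseline and 164 to 315 CPM in P10 sham, with Wt1, Upk1b, Krt8, Krt18 and Muc16 at 0 in all P10 baseline libraries, and their part in the Pcolce2 values was not tested. Group means of Pcolce2 along the unresected groups were thus 9.71 ± 2.55, 27.2 ± 9.73, 131 ± 21.7 and 247 ± 52.0 CPM (SD, n = 3 each). Those of P4ha3 were 80.9 ± 4.80, 64.3 ± 21.7, 30.5 ± 5.91 and 41.6 ± 7.93 CPM.

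A further list held other genes of procollagen modification, folding, export and processing. Of 22 listed, 21 were tested, since Tll1, a relative of Bmp1, was at or under 0.414 CPM in every library. In the window comparison 2 were called higher and 2 lower, again beside 13.5% of all genes (7.11% higher and 6.39% lower), with a median log2 fold change of 0.10 against -0.06 over all genes. Plod1, a lysyl hydroxylase of the collagen helix, rose from 202 ± 47.4 to 377 ± 63.6 CPM (SD, n = 9; log2 fold change 0.91 ± 0.14 SE, adjusted p = 3.1e-04). Colgalt2, which adds galactose to hydroxylysine, rose from 20.5 ± 10.6 to 49.0 ± 13.3 CPM (1.25 ± 0.30, adjusted p = 0.0091). P3h2, a prolyl 3-hydroxylase, fell from 45.2 ± 16.5 to 22 ± 11.5 CPM (-1.07 ± 0.26, adjusted p = 0.0090). Plod2, the lysyl hydroxylase of the telopeptides, fell from 108 ± 28.3 to 72.3 ± 21.3 CPM (-0.56 ± 0.18, adjusted p = 0.0429), and its call was lost in 13 of the 18 fits without 1 library and under DESeq2's size factors (adjusted p = 0.0520).

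P4hb, the shared partner of the 3 prolyl 4-hydroxylase subunits, was at 1654 ± 309 CPM in the P2 window and 1803 ± 260 CPM in the P10 window (SD, n = 9; log2 fold change 0.13 ± 0.13 SE, adjusted p = 0.588). Ppib, the cyclophilin that assists collagen folding, was at 240 ± 57.2 and 237 ± 45.8 CPM (-0.02 ± 0.17, adjusted p = 0.984). P4ha2 and Plod1 were called higher while P4ha3 and Plod2 were called lower, and P4ha1 and Plod3 were not called.

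The fibrillar collagen chains are the substrates of these enzymes. Of 11 chains, 2 were called higher and 2 lower in the P10 window, beside 7.11% of all genes higher and 6.39% lower (13.5% together), with a median log2 fold change of 0.25 against -0.06 over all genes. Col3a1, the chain of type III collagen, rose from 29631 ± 9604 to 45449 ± 8807 CPM (SD, n = 9; log2 fold change 0.65 ± 0.13 SE, adjusted p = 0.0027), and Col5a3, a type V chain, from 294 ± 132 to 647 ± 173 CPM (1.21 ± 0.17, adjusted p = 9.0e-05). Col11a1 fell from 91.7 ± 39.2 to 16.9 ± 11.8 CPM (-2.46 ± 0.30, adjusted p = 2.8e-05), and Col24a1 from 21.5 ± 7.92 to 5.43 ± 3.94 CPM (-2.37 ± 0.26, adjusted p = 9.7e-06). The type I chains were not called, with log2 fold changes of 0.32 ± 0.20 for Col1a1 (adjusted p = 0.325) and 0.35 ± 0.15 for Col1a2 (adjusted p = 0.126).

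**Figure D5:**
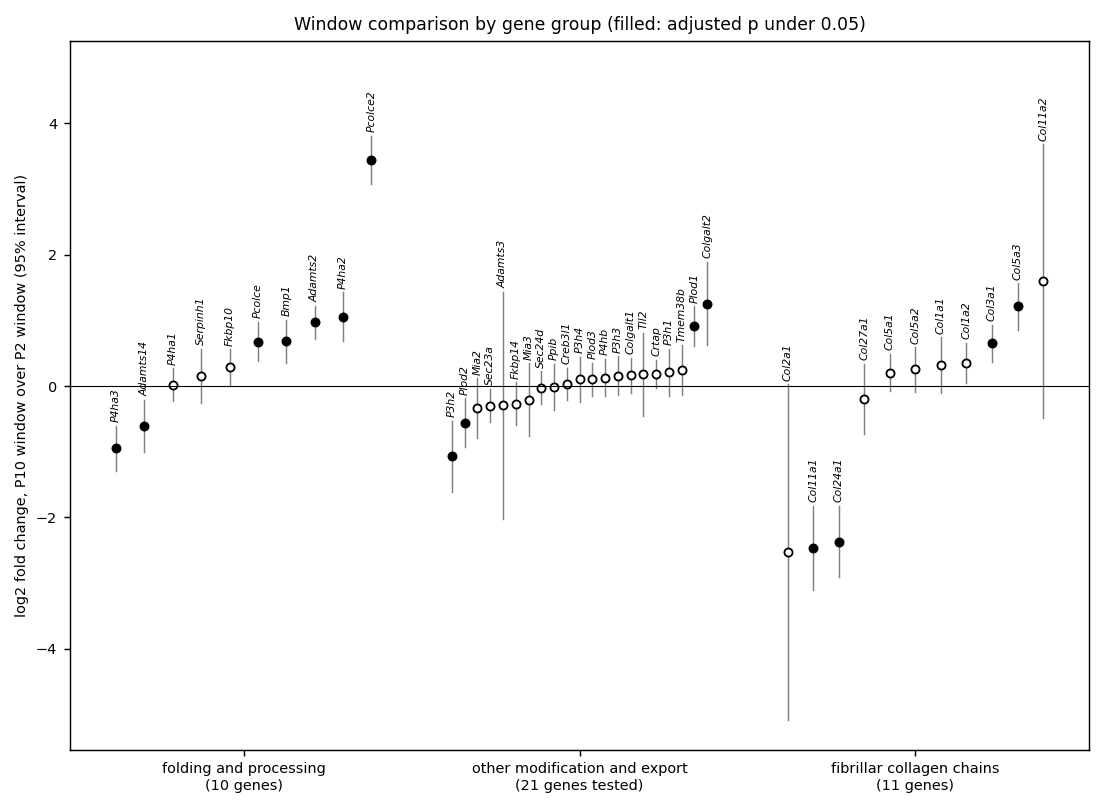
Log2 fold changes of the P10 over the P2 window (y axis) with 95% intervals for the 10 genes, the 21 other genes of procollagen modification and export and the 11 fibrillar chains (x axis), filled where the adjusted p was under 0.05. Filled points make up 7 of 10, 4 of 21 and 4 of 11, and each group has some on both sides of 0.

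The genes whose log2 CPM followed each member most closely over the 18 libraries were found by Pearson's r, as a description in which all genes share the libraries and their group means. For Pcolce2 they were Crispld2 (r = 0.983), Pi16 (0.983) and Adamtsl4 (0.979), and the nearest of the other 9 genes was Adamts2 (0.909). For Serpinh1 they were Pkm (0.953), Gnl1 (0.932) and Surf4 (0.919), and the nearest member was Fkbp10 (0.832). P4ha1 had no close companion among the members, where P4ha3 was nearest at 0.283, while over all genes Eif3c (0.836), Ganab (0.832) and 2700054A10Rik (0.814) came first.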

How the data were processed

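Bulk RNA sequencing of 18 libraries in 6 groups of 3 was used, grouped by the labels. Per the study's methods, the authors trimmed reads with fastp 0.20.0, mapped them with STAR 2.7.0f to GRCm38.p6 with GENCODE M22 and counted exon reads with featureCounts (Subread 1.6.4). The deposited counts are whole numbers per gene symbol, not normalized, and cDNA was amplified from low-input RNA without molecular identifiers, so depth covers counting error only. Genes were tested with the quasi-likelihood test of edgeR 4.0.16 in R 4.3.3 (filterByExpr with a minimum count of 10, TMM, 1 mean per group over all 18 libraries, Benjamini-Hochberg over 16170 genes, called under 0.05). DESeq2 1.42.0, limma 3.58.1 voom, DESeq2's size factors, no filter, only the compared groups, the replicate number as a block and each library left out were alternatives, and scripts were tested on simulated data. The 10 genes and the gene lists were chosen with earlier results of these data known. Of the other lists, genes called in the window comparison were named, up to 3 in each direction. Exon lengths and positions came from GENCODE M21 on GRCm38, and promoters from RefSeq.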

Additional observations from a re-analysis of the deposited data

How the results depend on the processing

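Each count of the 10 genes is followed by the share of all genes called in the same fit. Of the 7 window calls, all but that of Adamts14 held in all 24 alternative fits, and the window count was 6 to 8 genes (9.54% to 28.3%). At baseline the count was 3 (4.38%), but 4 under DESeq2 (P4ha2 added, 5.81%) and with no filter (P4ha2 added, 4.0%), 8 under voom with sample quality weights (22.5%), 5 with all libraries numbered 1 left out (chosen after seeing the data, 9.33%) and 2 to 5 with 1 library left out (1.53% to 7.04%). After sham surgery it was 3 (3.18%), but 4 under DESeq2 (Pcolce added, 4.45%), 5 under voom (4.37%), 4 with all libraries numbered 1 left out (Bmp1 added, 2.17%), 1 with only the compared groups fitted (0.908%) and 2 to 3 with 1 library left out (1.81% to 2.42%). After resection it was 1 (0.86%), but 2 under DESeq2 (1.76%), 4 under voom (5.62%), 2 with all libraries numbered 1 left out (1.38%) and 1 to 2 with 1 left out (0.174% to 0.789%). From P2 baseline to P2 sham it was 0 (0.0%), but 1 under DESeq2 (0.626%) and with no filter (0.381%). From P2 sham to P10 baseline it was 3 (1.32%), but 4 under DESeq2 (P4ha3 added, 3.16%), 5 under voom (6.39%), 4 with all libraries numbered 1 left out (Bmp1 added, 3.07%), 0 with only the compared groups fitted (0.00736%) and 1 to 3 with 1 library left out (0.376% to 2.59%). The causes were not tested.

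Called genes over all 16170 numbered 709, 515 and 139 in the baseline, sham and resected pairs under edgeR, and under DESeq2, which tested 28759, they numbered 1671, 1281 and 506. Without a filter they were 1155, 911 and 526, and under voom 3645, 707 and 908. With only the compared groups fitted they were 295, 125 and 332. With all libraries numbered 1 left out they were 1482, 345 and 219. Over the windows the counts were 2183 under edgeR and 4569 under voom, and for P2 sham to P10 baseline 214 under edgeR, 908 under DESeq2, 1033 under voom, 549 without a filter and 1 with only these groups fitted. Resection against sham gave 0 at P2 and 0 at P10 under edgeR, 34 and 43 under DESeq2, and 24 and 76 without a filter.

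The sign of P4ha1 over the windows turned under voom (-0.0067), and with 1 library left out its log2 fold change ran from -0.0285 to 0.0699. From plain counts the family shares in the P2 and P10 windows were 23.4% and 41.8% for P4ha2, 21.4% and 9.63% for P4ha3, and 9.57% and 3.46% for Adamts14, and P4ha1 was at 48.6% in the P10 window. By longest transcript P4ha1 was at 45.2% and 40.6%, and P4ha2 at 25.3% and 45.9%. Same-numbered libraries of different groups correlated in their deviations at -0.13 to 0.38 (median 0.05, over 0.1 in 15 of 45 pairs), and differently numbered ones at -0.28 to 0.21 (median -0.02, over 0.1 in 12 of 90). Since not every same-numbered pair was over 0.1 and no label says that a number marks a shared source, the fit without the block was kept, and whether the numbers mark a shared source is not known. With the replicate number as a block, the count of called genes was 4 of 10 at baseline (P4ha2 added, 0.94, adjusted p = 0.0379, beside 6.23% of all genes) and 4 after sham surgery (Pcolce added, 0.79, adjusted p = 0.0177, beside 3.93%), and over all genes 2745 in the window comparison. Depth limits the lowest gene most, since Pcolce2 had 111 counts in 1 library.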
